A study of Mus musculus with 18 samples.

Results

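The collagen chain genes are the mouse genes whose symbol reads Col, a type number, the letter a and a chain number, as in Col1a1. A total of 44 such genes were found in the annotation, and all 44 were listed in each of the 5 deposited comparison tables. The stage and regional tables list 27179 genes each, and the mutant table lists 35729 transcripts. They comprised 11 fibrillar chains, 8 basement membrane chains (types IV, XV and XVIII) and 25 other chains. The series measured RNA of sorted spinal motor neurons (MNs) in 18 samples. The p8 (postnatal day 8) groups were wild type brachial, thoracic and lumbar cells, with 3 samples each. The e12.5 (embryonic) brachial groups were Hoxc8 MNΔ, with 3 samples, and 6 samples titled only as E12.5 motor neurons, grouped here as wild type. In the paper the controls of the mutant comparison were Hoxc8 fl/fl embryos, with floxed Hoxc8 alleles. Segments C4 to T1 were dissected for the stage comparison and C7 to T2 for the mutant comparison. At e12.5 cells were sorted by GFP from the Mnx1-GFP reporter, and at p8 by tdTomato from Chat-IRES-Cre::Ai9. The Hoxc8 MNΔ embryos carried Olig2-Cre and floxed Hoxc8 alleles, and Olig2-Cre acts already in the progenitors that make MNs and later oligodendrocytes. Several spinal cords were pooled for each replicate. Values of single samples are not in these tables, and a level below is therefore the normalised read count that the base mean and the fold change imply for a group, and its error is the 95% interval of the fold change. The methods and the labels differ in the number of e12.5 samples, and which control samples entered which fit is not given in the sources used here. Levels use the 6 samples grouped as wild type at e12.5. With equal weights for the stages they would be 0.699 to 1.33 times those printed, by the same factor at p8 and e12.5, and the fold changes would stay as they are.

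Collagens are extracellular proteins whose alpha chains wind around each other in a long rod of repeated glycine-X-Y units. Fibrillar collagens such as types I, II, III, V and XI pack into fibrils in connective tissue and cartilage, type IV forms the sheet at the core of basement membranes, and other types decorate fibrils (FACITs), form beaded filaments (type VI) or span the plasma membrane. In the spinal cord, fibroblasts of the meninges, cells of blood vessels and Schwann cells of the roots are known sources of fibrillar and basement membrane collagens, and some transmembrane collagens are made by neurons.

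The genes lay on 15 chromosomes, and 8 neighbouring pairs, formed by 15 of the genes, were under 100000 bases apart. In GRCm38.p6, the type IV genes formed 3 such pairs. Col4a1 (chr8:11198423-11312889) and Col4a2 (chr8:11312805-11449287) run in opposite directions from annotated start sites that are 21 bases apart in the promoter annotation, and their promoter windows share 78 bases. Promoter windows of 250 bases before and 50 bases after the start site, credited to RefSeq (GRCm38.p6), matched 35 of the 44 genes. The windows below belong to this shared start, to Col3a1, the fibrillar chain with the highest level at p8, and to Col25a1, the chain with the largest fold change between stages. Capitals mark the CCAAT box (CCAAT), the GC box (GGGCGG) and a TATA box (TATAAA) on either strand.

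Col4a1: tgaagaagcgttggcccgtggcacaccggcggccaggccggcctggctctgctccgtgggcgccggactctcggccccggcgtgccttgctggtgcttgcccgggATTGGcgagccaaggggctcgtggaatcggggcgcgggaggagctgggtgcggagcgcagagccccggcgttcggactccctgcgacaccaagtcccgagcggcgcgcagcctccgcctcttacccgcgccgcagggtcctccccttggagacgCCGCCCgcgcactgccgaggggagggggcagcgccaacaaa
Col4a2: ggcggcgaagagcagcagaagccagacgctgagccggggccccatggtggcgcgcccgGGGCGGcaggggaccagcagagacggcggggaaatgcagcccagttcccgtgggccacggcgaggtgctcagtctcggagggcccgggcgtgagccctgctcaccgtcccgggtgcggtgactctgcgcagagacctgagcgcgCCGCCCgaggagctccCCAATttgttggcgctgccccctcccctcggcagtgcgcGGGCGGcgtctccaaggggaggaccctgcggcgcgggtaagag
Col3a1: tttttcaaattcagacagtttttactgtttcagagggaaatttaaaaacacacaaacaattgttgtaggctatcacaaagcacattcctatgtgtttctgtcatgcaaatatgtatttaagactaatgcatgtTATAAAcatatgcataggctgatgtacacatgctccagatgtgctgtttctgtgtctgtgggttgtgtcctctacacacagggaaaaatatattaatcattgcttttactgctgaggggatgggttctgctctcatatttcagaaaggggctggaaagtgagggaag
Col25a1: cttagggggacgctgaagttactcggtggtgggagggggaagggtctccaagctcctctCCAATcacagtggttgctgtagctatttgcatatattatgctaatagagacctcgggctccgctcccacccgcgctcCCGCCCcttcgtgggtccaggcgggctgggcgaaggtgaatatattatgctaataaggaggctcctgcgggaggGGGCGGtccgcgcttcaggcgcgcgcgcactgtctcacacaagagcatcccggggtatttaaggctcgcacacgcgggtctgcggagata

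The Col4a1 window (chr8:11312777-11313076, minus strand) held 1 CCAAT and 1 GGGCGG match, and the Col4a2 window (chr8:11312555-11312854, plus strand) held 1 and 3. The GGGCGG match after the start site of Col4a1 and the one after the start site of Col4a2 are the same bases read from opposite strands. The Col25a1 window (chr3:130180595-130180894, plus strand) held 1 CCAAT and 2 GGGCGG matches. The Col3a1 window (chr1:45311288-45311587, plus strand) held neither and had 1 TATAAA match, which begins 117 bases before the start site. Some of the 35 genes have several windows, and over the 38 windows of collagen chain genes GGGCGG was found in 23 (60.5%), against 35.7% of all 32851 promoter windows. CCAAT was found in 13 (34.2%), against 37.4%, and TATAAA in 5 (13.2%), against 13.6%. A match is a description of the letters and not evidence of a bound factor.

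Brachial MNs at p8 were first compared with those at e12.5, the comparison the study used to follow the MN transcriptome from embryo to postnatal life. Of the 44 chains, 37 had a p-value. After Benjamini-Hochberg adjustment of the authors' Wald test over all 18787 genes with a p, 15 chains were called at an adjusted p under 0.05. This was 40.5% of the chains tested, beside a background of 47.8% of all genes. Of these, 9 were higher at p8 (24.3%, background 23%) and 6 were lower at p8 (16.2%, background 24.8%), so the share higher at p8 was near that of all genes and the share lower at p8 was below it, a difference that was not tested. The chains higher at p8 were Col1a1, Col3a1, Col6a1, Col6a2, Col9a1, Col13a1, Col15a1, Col16a1 and Col28a1. Those lower at p8 were Col2a1, Col9a2, Col14a1, Col19a1, Col25a1 and Col26a1. The median log2 fold change (p8 over e12.5) of the 44 chains was 0.47, and that of all 21211 genes with a fold change was 0.10.

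These calls hold on the scale of the authors' size factors, and many of those higher at p8 were lost on another one. No called chain changed sign there, and the fold changes that turned belong to chains not called or with no p. The summed level of all genes was 36210981 at p8 and 15398259 at e12.5, a ratio of 1.23 on the log2 scale, and 10 oligodendrocyte marker genes alone made up 43.6% of the p8 sum. When every fold change was lowered by that ratio, 17 chains were called, of which 3 were higher at p8 (Col3a1, Col16a1 and Col28a1) and 14 were lower, and 14 of the 44 fold changes stayed above 0, against 26 before. All 6 chains lower at p8 kept their call on that scale, which the lowering itself brings about for fold changes already below 0. The collagen chains together took 0.0946% of the summed level at p8 and 0.0815% at e12.5.

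**Figure D1:**
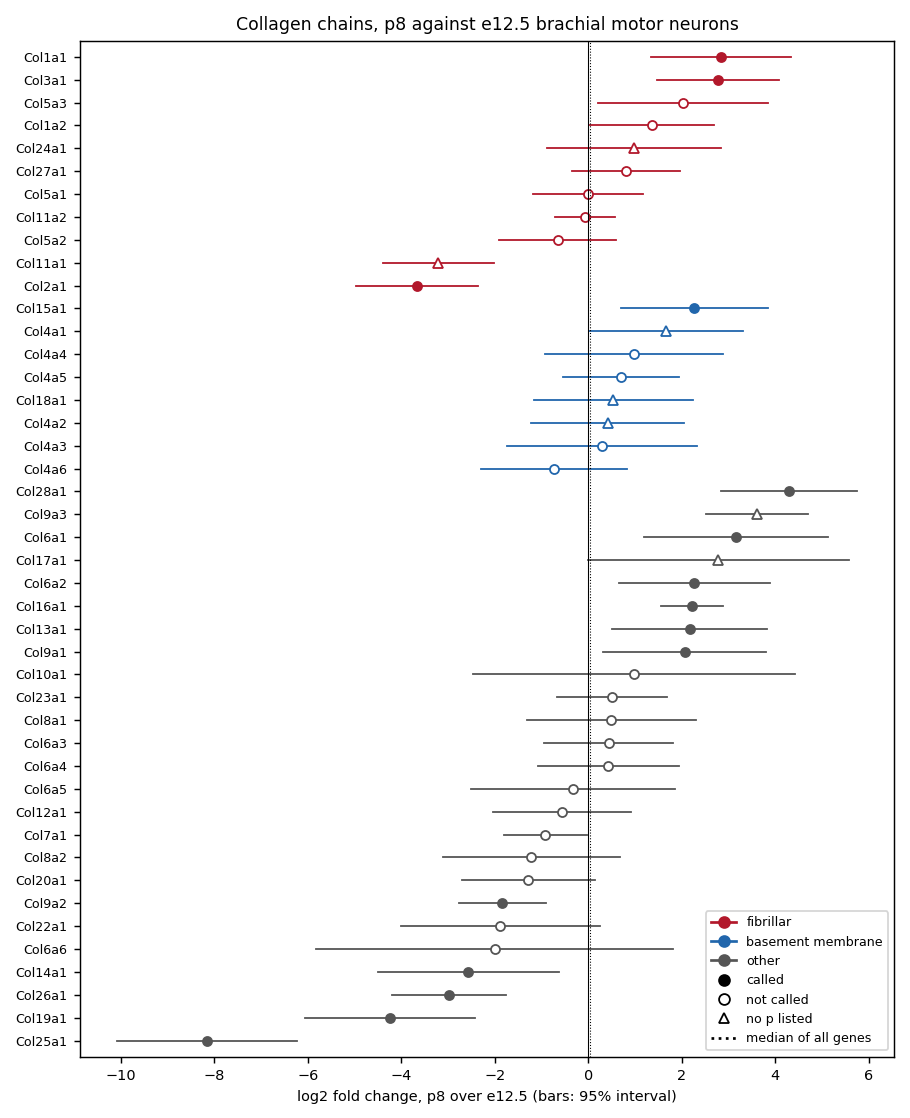
Log2 fold change (p8 over e12.5) of the 44 collagen chains with its 95% interval, grouped by class from top to bottom as fibrillar, basement membrane and other. Filled circles were called, open circles were not and triangles have no listed p. Called chains run from Col25a1 at -8.15 to Col28a1 at 4.30, and the dotted line is the median of all genes with a p at 0.04.

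The sorted cells of the stages also differed in markers of other cell types. All 10 oligodendrocyte, all 8 microglia, 9 of 10 endothelial and 5 of 8 astrocyte markers were called higher at p8. Markers of mature neurons were called lower at p8 in 8 of 10 and higher in 1, with sums of 79959 at p8 and 127222 at e12.5. Most of the p8 sum came from Nefh, the marker called higher, and Nefl, which was not called. They had 42534 and 31245 at p8, against 213 and 10055 at e12.5. Among the 8 called lower, Tubb3, Mapt and Map2 had 588, 1553 and 1491 at p8, against 32728, 26164 and 23844 at e12.5. Fibroblast markers were called higher in 4 of 10 and lower in 1, with a summed level of 4356 at p8 and 813 at e12.5. Pdgfra and Slc6a13 had 1915 and 233 at p8, against 68.9 and 22.5 at e12.5 (adjusted p = 8.91e-16 and 0.000300). Pdgfra was the largest single part of the fibroblast sum at p8. Dcn and Lum, proteoglycans that bind collagen fibrils, had 1168 and 697 at p8, against 525 and 79.8 at e12.5, and Dcn was not called (adjusted p = 0.380) while Lum had no p. Schwann cell markers were called higher in 6 of 8, with sums of 7214 and 366. Pericyte and mural markers were called higher in 2 of 10 (Cspg4 and Acta2) and lower in 1 (Notch3), with sums of 2748 at p8 and 2121 at e12.5. MN markers were called lower at p8 in 5 of 8 and higher in 0. Mnx1, the homeodomain factor whose reporter marked the e12.5 cells, had a level of 5.80 at p8 and 3504 at e12.5 (adjusted p = 9.09e-36). Ret, a receptor of trophic factors, and Slc18a3, the vesicular acetylcholine transporter, had 56.1 and 25.7 at p8, against 1059.6 and 668.9 at e12.5 (adjusted p = 4.08e-10 and 4.05e-05). Prph, a neuronal intermediate filament, had 796.4 at p8 and 2209.9 at e12.5 and was not called (adjusted p = 0.291). Isl1 and Isl2, transcription factors of MNs, had 0.956 and 0.706 at p8, against 469 and 122 at e12.5, and both were called. Chat, the enzyme that makes acetylcholine and whose locus drives the p8 reporter, had 37.8 at p8 and 202 at e12.5 (adjusted p = 0.0836), and Slc5a7, the choline transporter, had 266 at p8 and 182 at e12.5 (adjusted p = 0.708). Their part in the collagen values was not tested, and in sorted bulk samples fewer cells of a type and less RNA per cell cannot be told apart.

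Among the fibrillar chains, 2 rose, 1 fell, 6 did not pass the test and 2 had no p, and the summed level was 13737 at p8 and 5565 at e12.5. Col3a1 (chr1:45311538-45349706), the chain of type III collagen in pliable connective tissue, had a level of 7810 at p8 and 1136 at e12.5, a log2 fold change of 2.78 (1.48 to 4.09, adjusted p = 0.000108). Col1a1 (chr11:94936224-94953042), the more abundant chain of type I collagen, had a level of 2561 at p8 and 359.6 at e12.5, a log2 fold change of 2.83 (1.34 to 4.33, adjusted p = 0.000672). Its partner Col1a2 had 1504 at p8 and 584.8 at e12.5, and the log2 fold change of 1.36 (0.03 to 2.70) missed the threshold with an adjusted p of 0.0881. Both chains of type I collagen were thus higher at p8 in their point estimates, and only that of Col1a1 passed.

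Of the fibrillar chains found in cartilage, 1 was called, and it was lower at p8. Col2a1 (chr15:97975602-98004724), the chain of type II collagen in cartilage and notochord, had a level of 81.4 at p8 and 1030.1 at e12.5, a log2 fold change of -3.66 (-4.97 to -2.35, adjusted p = 2.54e-07). Col11a1, which is built into type II fibrils, had 68.2 at p8 and 628.7 at e12.5, a log2 fold change of -3.21 (-4.40 to -2.01), with no p. Col11a2, its partner in type XI collagen, had 734.3 at p8 and 772.5 at e12.5, and its log2 fold change of -0.07 had an interval of -0.71 to 0.57. Of 8 cartilage and notochord markers, Matn1 and Matn4 were called higher at p8 and none lower, and Sox9, which drives cartilage genes, had 273 at p8 and 427 at e12.5 (adjusted p = 0.454).

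Col5a1 and Col5a2, chains of the type V collagen that limits fibril width, had log2 fold changes of -0.01 (-1.19 to 1.17) and -0.66 (-1.90 to 0.59). Col5a3 had levels of 42.4 at p8 and 10.4 at e12.5 and missed the threshold with an adjusted p of 0.0603. Col27a1 had a log2 fold change of 0.81 (-0.34 to 1.96), and Col24a1, at a level of 14.7 at p8 and 7.44 at e12.5, had no p.

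Among the basement membrane chains, 1 of the 5 with a p was called, and 7 of the 8 fold changes were above 0. Col15a1, whose type XV collagen links basement membrane to the fibrils beneath, had a level of 299 at p8 and 61.9 at e12.5, a log2 fold change of 2.27 (0.71 to 3.84, adjusted p = 0.0112). Col4a1, the ubiquitous type IV chain, had 4806 at p8 and 1522 at e12.5, and Col4a2, which assembles with it, had 1323 at p8 and 992.3 at e12.5. Their log2 fold changes were 1.66 (0.01 to 3.31) and 0.41 (-1.21 to 2.04), and neither had a p. Col18a1, the source of endostatin, had 1203 at p8 and 832.1 at e12.5, also with no p. Thus the 3 basement membrane chains of highest level carry no test.

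The restricted type IV chains were lower in level. Col4a5 had 324.6 at p8 and 199 at e12.5 (adjusted p = 0.393), and Col4a6, the X-linked neighbour of Col4a5 at a distance of 1274 bases, had 25.7 at p8 and 42.8 at e12.5 (adjusted p = 0.50). Col4a3 and Col4a4, which are known from the kidney filter, had levels of 4.88 and 13.1 at p8, against 3.99 and 6.63 at e12.5. Of all 44 chains, 5 had a base mean under 10, and these were Col4a3, Col4a4, Col6a6, Col10a1 and Col24a1.

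Of the 25 other chains, 6 rose, 5 fell, 12 did not pass and 2 had no p. Among type VI chains, which form beaded filaments around cells, Col6a1 (chr10:76708792-76726044) had a level of 758.3 at p8 and 84.7 at e12.5, a log2 fold change of 3.16 (1.19 to 5.13, adjusted p = 0.00452). Col6a2, the next collagen gene on the chromosome at 85161 bases, had 992.3 at p8 and 206.1 at e12.5, a log2 fold change of 2.27 (0.65 to 3.89, adjusted p = 0.0146). Col6a3, the third chain of the classical type VI unit, had 205.4 at p8 and 151.3 at e12.5, and its log2 fold change of 0.44 had an interval of -0.94 to 1.82. Col6a4, Col6a5 and Col6a6, which can take the place of Col6a3, had levels of 0.498 to 24.1 at p8 and 2.0 to 17.9 at e12.5, and none was called.

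The type IX chains, which assemble with each other on the surface of type II fibrils, differed from one another. Col9a3 (chr2:180598102-180622192) had a level of 9374 at p8 and 768.6 at e12.5, a log2 fold change of 3.61 (2.52 to 4.70), with no p. Col9a1 had 48.7 at p8 and 11.7 at e12.5, a log2 fold change of 2.06 (0.32 to 3.81, adjusted p = 0.0438). Col9a2 had 127.6 at p8 and 455.6 at e12.5, a log2 fold change of -1.84 (-2.76 to -0.91, adjusted p = 0.000335). Per kilobase of exon, the level of Col9a3 was 70.5 times that of Col9a2 at p8 and 1.62 times at e12.5, and 259 times that of Col9a1 at p8 and 88.8 times at e12.5.

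Of the remaining FACITs, Col16a1 had a level of 259.7 at p8 and 55.6 at e12.5 and the narrowest interval of the called chains, a log2 fold change of 2.22 (1.57 to 2.88, adjusted p = 2.76e-10). Col14a1 had 12.1 at p8 and 71.7 at e12.5, a log2 fold change of -2.56 (-4.51 to -0.62, adjusted p = 0.0225). Col19a1 had 1.09 at p8 and 20.6 at e12.5, a log2 fold change of -4.24 (-6.05 to -2.43, adjusted p = 1.95e-05). Col19a1 lies 4944 bases from Col9a1 on chromosome 1, so these neighbours were called in opposite directions. Of the 8 neighbouring pairs, 4 had fold changes of the same sign. Col12a1, Col20a1 and Col22a1 had log2 fold changes of -0.56, -1.28 and -1.88 and were not called.

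Transmembrane collagens held the largest single change. Col25a1 (chr3:130180358-130599884), whose product is known in mice as a requirement for motor axons to enter and innervate muscle, had a level of 0.895 at p8 and 254.7 at e12.5. Its log2 fold change was -8.15 (-10.08 to -6.22, adjusted p = 1.85e-15), so that its level at e12.5 was 284 times that at p8. Col13a1, known for its role in the maturation of the neuromuscular junction, had 75.1 at p8 and 16.7 at e12.5, a log2 fold change of 2.17 (0.51 to 3.83, adjusted p = 0.0238). These transmembrane chains with known roles at nerve-muscle contacts were thus called in opposite directions. Col23a1 had a log2 fold change of 0.50 (-0.68 to 1.68), and Col17a1, a chain of skin hemidesmosomes, had levels of 25.1 at p8 and 3.65 at e12.5 with no p.

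Col28a1 (chr6:7997100-8193709), a chain known from Schwann cell basement membranes in mouse nerve, had the largest rise, with a level of 76.8 at p8 and 3.90 at e12.5, a log2 fold change of 4.30 (2.84 to 5.76, adjusted p = 4.75e-08). Col26a1 had 69.6 at p8 and 548.7 at e12.5, a log2 fold change of -2.98 (-4.20 to -1.76, adjusted p = 8.02e-06). Col7a1, the chain of anchoring fibrils in skin, had a log2 fold change of -0.91 (-1.79 to -0.04) and missed the threshold with an adjusted p of 0.0816. The short chain collagens Col8a1, Col8a2 and Col10a1 were not called, and their log2 fold changes ran from -1.22 to 0.98.

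**Figure D2:**
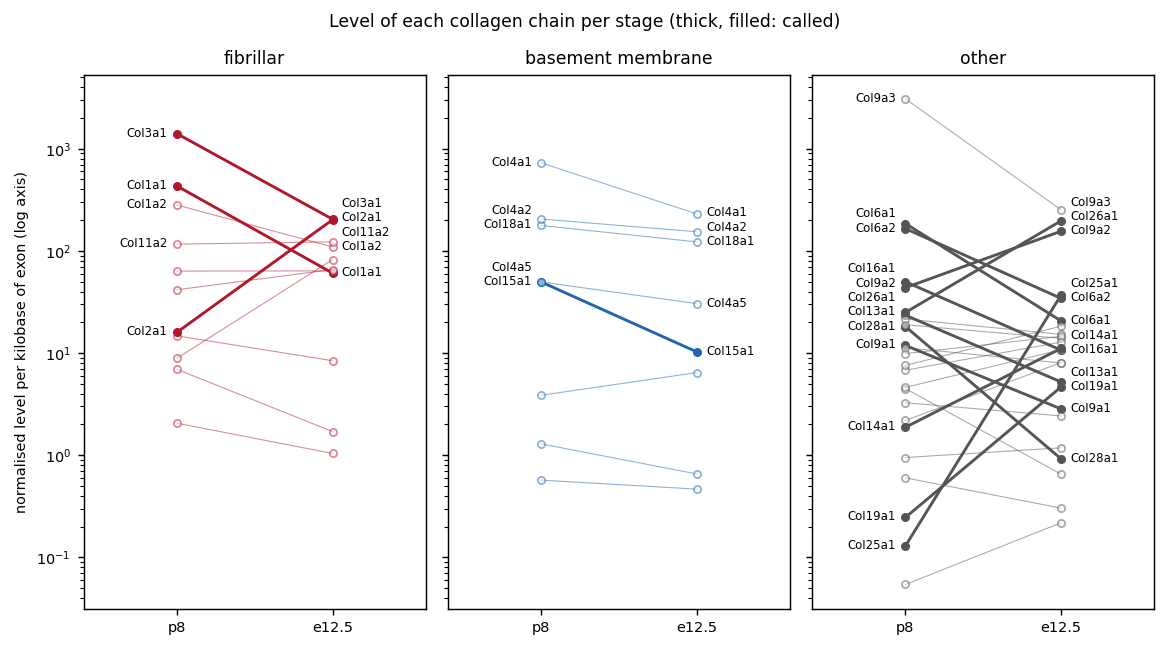
Normalised level per kilobase of exon (log axis) of each collagen chain at p8 and e12.5, in panels for fibrillar, basement membrane and other chains. Thick lines with filled points were called, thin lines with open points were not called or have no p. Col9a3 stands highest at p8 with 3078 per kilobase, and Col25a1 has 0.130 at p8 and 36.9 at e12.5.

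Per kilobase of exon, the order of levels changed between stages. At p8 it ran from Col9a3 (3078 per kilobase) through Col3a1 (1404), Col4a1 (726), Col1a1 (432) and Col1a2 (281) to Col4a2 (205). At e12.5 the first 6 chains were Col9a3 (252), Col4a1 (230.1), Col3a1 (204), Col2a1 (202), Col26a1 (197) and Col9a2 (156). No test compared levels between genes. The ratio of Col1a1 to Col1a2 per kilobase was 1.54 at p8 and 0.555 at e12.5, and that of Col4a1 to Col4a2 was 3.54 at p8 and 1.5 at e12.5.

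Genes that make, bind or accompany collagen showed no common direction. Of 33 genes of collagen biosynthesis and processing, 6 were higher at p8, 7 were lower, 17 did not pass and 3 had no p. P4hb, a subunit of the prolyl hydroxylase that stabilises the helix, had a log2 fold change of 0.57 (adjusted p = 5.94e-06), whereas Mia3, which loads procollagen for export, Bmp1, which trims the C-terminal propeptide, and Colgalt1, which adds sugars, had -0.76, -1.12 and -0.78 (adjusted p = 0.0460, 0.00147 and 0.0294). Serpinh1, the collagen chaperone of the endoplasmic reticulum, had a log2 fold change of -0.08 (adjusted p = 0.938). Of 10 collagen receptors, Itgb1, the shared beta subunit of collagen-binding integrins, and Lair1, an inhibitory receptor of immune cells, were higher at p8 with log2 fold changes of 2.29 and 6.11 (adjusted p = 2.21e-11 and 2.68e-17). Itga10 was lower at p8 with -7.88 (adjusted p = 2.16e-12).

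Of 16 basement membrane partners of type IV collagen, 5 were higher at p8, 4 were lower, 5 did not pass and 2 had no p. Nid1, which ties laminin to type IV collagen, had levels of 5674 at p8 and 423 at e12.5, and Sparc, a collagen-binding protein, had 9307 at p8 and 563 at e12.5 (adjusted p = 1.02e-06 and 2.92e-19). Agrn, which organises the neuromuscular synapse, had 927 at p8 and 19142 at e12.5 (adjusted p = 4.44e-21), and Lama1 had 399 at p8 and 2042 at e12.5, with no p.

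Regions of the p8 cord were compared next, each against the other regions together. The study sequenced thoracic and lumbar cells to ask if Hox genes stay on after birth in MNs beyond the brachial cord. All 3 tables were fitted on the same 9 samples and so share them. No collagen chain was called in any region. The background was 0.261% of 18368 genes for brachial, 0.011% of 18152 for thoracic and 0.0219% of 18270 for lumbar. At an unadjusted p under 0.05, 2 of 28 tested chains were lower in brachial cells (background 3.27% lower), 4 of 38 were lower in thoracic cells (background 0.959% lower) and 0 of 28 passed in lumbar cells (background 2.88% in either direction). With the spread these tables list, a chain of median standard error needed a log2 fold change of 4.47 in the brachial, 4.28 in the thoracic and 4.88 in the lumbar table to be called. At the smallest standard error of a tested chain the limits were 2.17, 2.59 and 2.67 in the same order, and differences below a chain's own limit were not detectable here. The regional fold changes were also drawn toward 0 by the authors' fit. Genes seen as a single read had at most 0.57, 0.25 and 0.31 in size, and the largest standard errors of any gene were 1.35, 0.978 and 1.19. These limits, and the regional intervals and levels below, are thus on the scale of moderated estimates.

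The point estimates had a common pattern that no test carries. Of the 44 fold changes, 38 were above 0 in lumbar cells, 8 in thoracic cells and 9 in brachial cells, beside 44.2%, 39.0% and 48.5% of all genes. The median log2 fold changes of the chains were 0.99, -0.77 and -0.64 in the same order, and those of all genes were -0.11, -0.12 and -0.01. The summed level of the chains was 41083 in lumbar, 14894 in thoracic and 20586 in brachial cells. Lumbar cells had the highest level for 34 chains, and thoracic cells had the lowest for 24.

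A listed p was missing for 16 of 44 chains (36.4%) in the lumbar and in the brachial table, and for 6 (13.6%) in the thoracic table, against 8.35%, 7.86% and 8.94% of all genes. The authors' program by default lists no p where the count of a single sample lies far from the others. The tables do not say which sample that was.

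**Figure D3:**
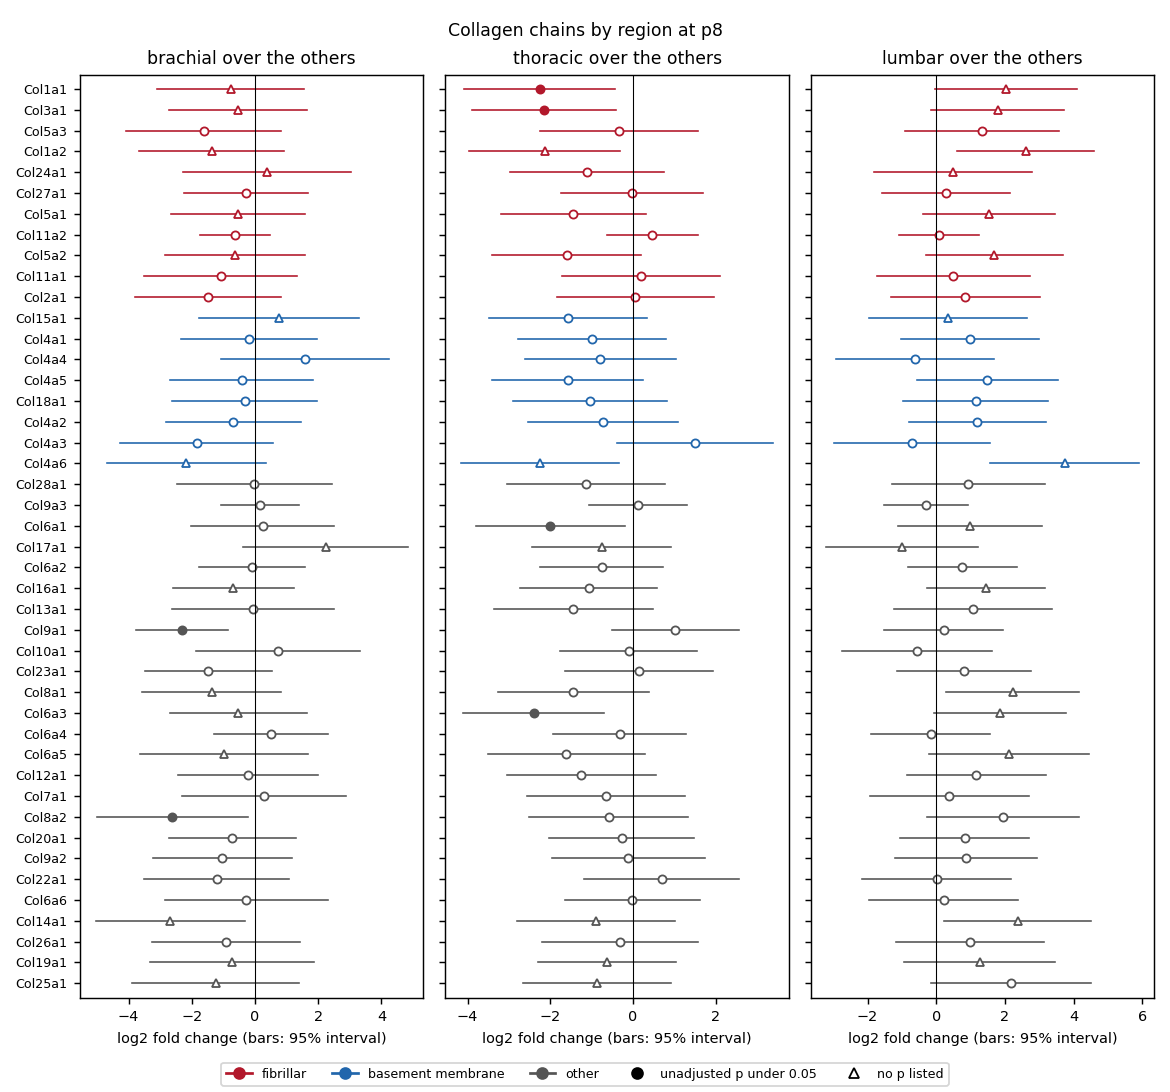
Log2 fold change of each collagen chain with its 95% interval in the brachial, thoracic and lumbar comparisons at p8, each over the other regions. Filled circles have an unadjusted p under 0.05 and triangles have no listed p. Most lumbar points lie right of 0 and most thoracic points left of it, with the 4 filled thoracic points between -2.40 and -2.00.

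Col3a1, Col1a2 and Col1a1 spanned the widest ranges between regions in normalised counts. As a ratio the ranges of Col4a6 and Col14a1, named after their values were seen, were wider, with levels of 286.6 and 184.2 in lumbar, 28.3 and 53.9 in thoracic, and 29.5 and 18.4 in brachial cells. Col3a1 had levels of 11876 in lumbar, 1897 in thoracic and 4833 in brachial cells, with log2 fold changes of 1.79 and -0.53 for lumbar and brachial, both with no p, and -2.15 for thoracic (unadjusted p = 0.0150, adjusted p = 1.0). Col1a1 had levels of 5056 in lumbar, 714.0 in thoracic and 1717 in brachial cells, and its thoracic log2 fold change was -2.26 (-4.08 to -0.43, unadjusted p = 0.0156). Col1a2 had 5239 in lumbar, 706.1 in thoracic and 1107 in brachial cells and had no p in any of the 3 tables. All 11 fibrillar fold changes were above 0 in lumbar cells, with a median of 1.34, and 6 of these had no p. Col11a2, the cartilage chain, had 594.9 in lumbar, 706.0 in thoracic and 418.1 in brachial cells, with intervals that include 0 in each table.

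The 4 basement membrane chains of highest level were highest in lumbar and lowest in thoracic cells in their point estimates. Col4a1 had levels of 4541 in lumbar, 1842 in thoracic and 2778 in brachial cells, and unadjusted p of 0.334, 0.283 and 0.863. Col4a2 had 1834 in lumbar, 798.3 in thoracic and 813.8 in brachial cells, and Col18a1 had 1318, 490.2 and 711.7 in that order of regions. Col4a5 had 426.2 in lumbar, 104.7 in thoracic and 197.9 in brachial cells, with a thoracic log2 fold change of -1.58 (unadjusted p = 0.0901). The highest lumbar estimate of any chain was that of Col4a6, at a log2 fold change of 3.74 (1.58 to 5.90), with no p.

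Among the other chains, Col9a3 was even across regions, with levels of 4282 in lumbar, 5196 in thoracic and 5259 in brachial cells, and its log2 fold changes lay between -0.29 and 0.15. Its interval for lumbar cells, -1.51 to 0.93, does not show that the regions are alike. Col6a1 had 564.2 in lumbar, 125.3 in thoracic and 422.8 in brachial cells (thoracic log2 fold change -2.00, unadjusted p = 0.0295), and Col6a2 had 815.6, 406.2 and 564.0 in that order of regions. Col16a1 had 380.3 in lumbar, 126.5 in thoracic and 156.0 in brachial cells. A further 3 chains are named here after their values were seen. Col6a3 had a thoracic log2 fold change of -2.40 (unadjusted p = 0.00570), and Col9a1 and Col8a2, a chain of corneal and vascular matrix, had brachial log2 fold changes of -2.31 and -2.62 (unadjusted p = 0.00191 and 0.0314). The smallest adjusted p among them was 0.186, for Col9a1 in the brachial table.

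Markers of other cells differed in direction between the regions. Fibroblast markers had median log2 fold changes of 1.48 in lumbar, -1.67 in thoracic and -0.28 in brachial cells, and Schwann cell markers had 2.09, -0.93 and -1.61. Pdgfra, the fibroblast marker of highest level, did not share that order, with log2 fold changes of -0.10, 0.11 and -0.02. Pericyte and mural markers had medians of 0.92, -0.93 and -0.73. Endothelial and oligodendrocyte markers had -0.32 and 0.21 in lumbar, 0.12 and -0.05 in thoracic, and 0.08 and -0.25 in brachial cells. Microglia markers were low in lumbar and high in thoracic cells, with medians of -1.09 in lumbar (0 of 8 above 0), 1.05 in thoracic (8 of 8 above 0) and -0.38 in brachial cells. MN markers had -0.98 in lumbar (1 of 8 above 0), 0.40 in thoracic and -0.08 in brachial cells, and astrocyte markers had 0.31, -0.32 and -0.10 in that order of regions. The summed MN marker level was 875 in lumbar, 493 in thoracic and 636 in brachial cells. Prph was most of it in lumbar and brachial cells, with 737 and 414. In thoracic cells Prph had 180 and Slc5a7 had 219. Mature neuron markers had medians of 0.19 in lumbar, 0.09 in thoracic (6 of 10 above 0) and -0.18 in brachial cells. Among them Nefl, Nefm and Nefh, named after their values were seen, had -2.12, -1.88 and -1.96 in thoracic cells. In lumbar cells these genes had 0.96, 1.16 and 0.75. Of these lists, 1 gene was called, Notch3, a mural receptor, at a brachial log2 fold change of -4.70 (adjusted p = 0.0318). The part of these cells in the collagen values was not tested.

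**Figure D4:**
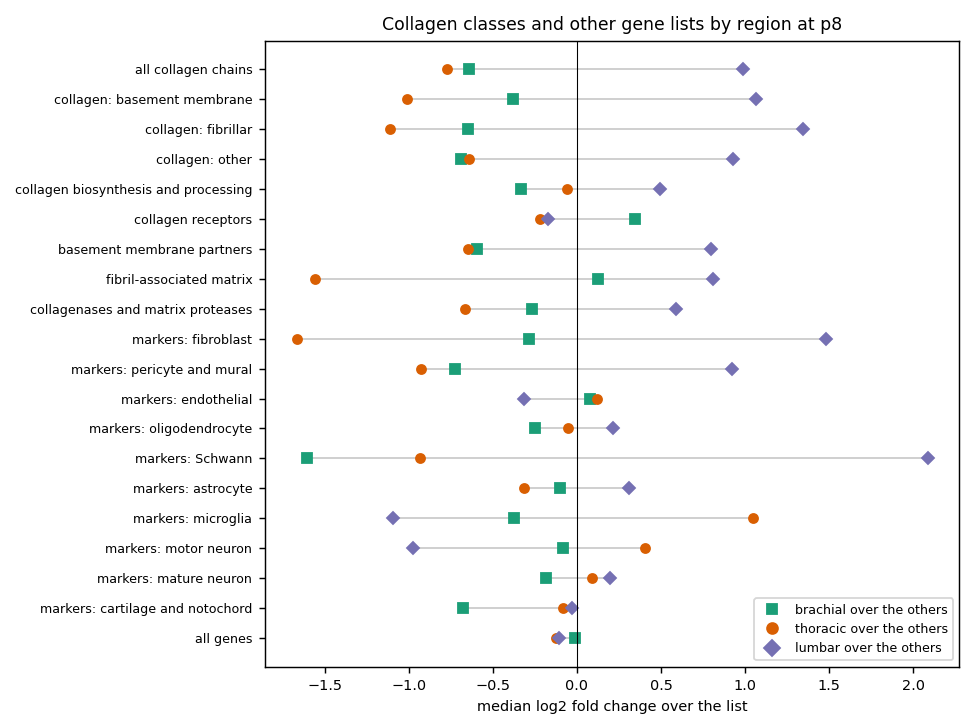
Median log2 fold change of the collagen classes, of other gene lists and of all genes in the brachial (squares), thoracic (circles) and lumbar (diamonds) comparisons at p8, each over the other regions. The fibrillar and basement membrane classes and the fibroblast, mural and astrocyte markers share the order lumbar, brachial, thoracic. So do all collagen chains together, the basement membrane partners, the fibril-associated matrix and the matrix proteases. In that order the medians were 1.48, -0.28 and -1.67 for fibroblast markers and 0.31, -0.10 and -0.32 for astrocyte markers.

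Hoxc8 MNΔ brachial cells at e12.5 were compared with control cells to find genes that need Hoxc8, a homeodomain transcription factor of brachial MNs. The targeted gene had a base mean of 19301 and a log2 fold change (Hoxc8 MNΔ over control) of -0.10 (-0.26 to 0.06, unadjusted p = 0.209, adjusted p = 1.0), and so was not called. The paper lists Hoxc8 among its downregulated transcripts at p under 0.05, and the Hoxc8 value here thus differs from that list. By immunostaining the paper detected no Hoxc8 protein in MNs of these embryos. Fold changes in this table were drawn strongly toward 0 by the authors' fit. The largest standard error among all transcripts was 0.0835, and transcripts seen as a single read had log2 fold changes of at most 0.0018 in size.

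No collagen chain was called in the mutants at an adjusted p under 0.05, with a background of 0.0357% of 19634 transcripts, and 0 chains had an unadjusted p under 0.05, with a background of 0.871%. Of the 44 chains, 40 had a fold change. These ran from -0.10 for Col11a1 to 0.08 for Col19a1 on the log2 scale, and 27 of the 40 were below 0. Col11a1 had a base mean of 976.2 and an interval of -0.25 to 0.05 (unadjusted p = 0.192). Col3a1, Col1a1 and Col4a2, with base means of 1722, 559.3 and 1530, had log2 fold changes of -0.01 (-0.06 to 0.04), -0.00 (-0.05 to 0.04) and -0.03 (-0.11 to 0.05). Since no transcript in this table had a standard error above 0.0835, however few its reads, these narrow intervals describe the moderated estimate and give no bound on the underlying change.

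Several chains were scarcely counted in the mutant table. Of the 15 chains with more than 1 listed transcript, 12 had a summed base mean under 10 and 4 were at 0, namely Col4a1, Col5a3, Col17a1 and Col24a1. Of the 29 chains with 1 listed transcript, 4 were under 10. Col4a1, at 0 here, had an e12.5 level of 1522 in the stage table, Col18a1 had 5.64 here and 832.1 there, and Col25a1 had 0.647 here and 254.7 there. Over all genes with an e12.5 level of at least 100 in the stage table, 54.5% of 3748 genes with several listed transcripts were under 10 in the mutant table, against 0.611% of 6544 genes with 1. For these chains the mutant table thus holds next to no information. Of 10 pericyte and mural markers, 7 had a fold change in this comparison, with a median of -0.07 and 1 above 0. Rgs5 and Cd248 were called lower in Hoxc8 MNΔ cells at log2 fold changes of -0.38 and -0.32 (adjusted p = 0.0294 and 0.0407). Notch3 and Vtn, which had higher base means, had -0.07 and -0.004 and were not called. The part of mural cells in the collagen values was not tested.

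**Figure D5:**
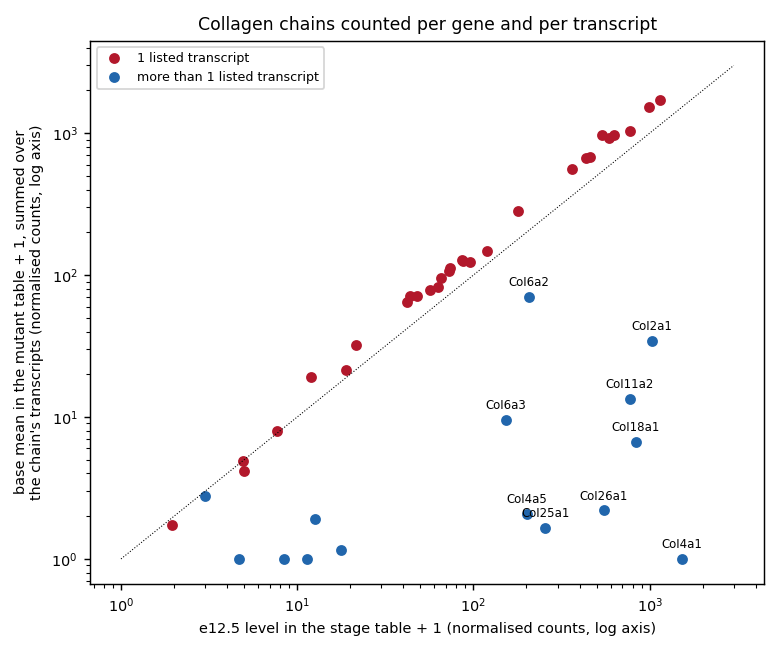
Base mean of each collagen chain in the mutant table, summed over its listed transcripts, against its e12.5 level in the stage table (both plus 1, log axes). Chains with 1 listed transcript run along the dotted line of equal values and mostly above it, as with Col3a1 at 1722 against 1136. Chains with more than 1 lie below the line, down to Col4a1 at 0 against 1522.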

How the data were processed

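Single-end RNA sequencing covered FACS-sorted MNs of 18 mouse samples. HISAT (printed as HISET2 in the methods) placed unique reads on GRCm38/mm10, and featureCounts gave counts. These are listed per gene in the stage and regional tables and per transcript in the mutant table. The authors tested groups with DESeq2, and all steps were run on Galaxy. Versions are not given in the sources used here. In the 5 comparison tables the authors deposited the base mean as a signal, which is the mean of counts over size factors across the samples of the fit. The log2 fold changes and standard errors are as the authors' model gave them. The deposited Wald score is their quotient. Each deposited p-value is 2-sided and has an adjusted partner. Without values of single samples, depth per sample is unknown and no model was refitted. These columns are the authors' own comparisons, and every call here is a new adjustment of them.

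The deposited stage table is e12 over p8 and the mutant table control over mutant, and both signs were turned. All features with a p entered the Benjamini-Hochberg adjustment. Intervals of 95% assume a normal error. The methods name 3 biological replicates for e12.5, whereas 6 samples are titled E12.5 motor neurons and were grouped as wild type. In the stage table, features counted about once had 6 base means that share 1 fold change, and stage levels were solved with weights of 3 (p8) and 6 (e12.5) samples, and regional levels by least squares over the 3 tables, which missed the listed fold changes by a median of 0.027 and at most 0.44 on the log2 scale. Symbols and positions came from the GRCm38.p6 annotation (93.0% of genes and 99.2% of transcripts matched), and exon lengths from GENCODE for GRCm38. In the mutant table the transcript of highest base mean stood for a gene. The members and all lists were chosen with earlier results of these data known. Every called chain and the 4 of highest base mean in each class were given values. Genes named from other lists are the called members where these were up to 4, and otherwise the 4 of highest base mean. Serpinh1, Sox9, Isl1, Isl2, Chat, Slc5a7 and Nefh were named outside that rule, with their values seen. Replicates pool several cords, and p-values measure the spread between such pools. Alternatives were other adjustments, a base mean minimum of 10, an adjusted p of 0.01, re-centring, a fold over 4, other sample weights and, added after seeing the data, scaling by summed levels. Protein sequences were not analysed here. The adjustment with its calls, the re-centring and the solving of levels were first run on simulated data, and the other steps were not. The software was matplotlib 3.10.9, scipy 1.17.1, pandas 2.3.3 and numpy 2.4.6 under Python 3.11.15.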

Additional observations from a re-analysis of the deposited data

How the results depend on the processing

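The count of chains called between the stages, 15, became 5 under a Bonferroni adjustment (Col16a1 and Col28a1 higher at p8, and Col2a1, Col25a1 and Col26a1 lower). It was 10 at an adjusted p under 0.01, 14 with a fold over 4 and 16 with a base mean of at least 10, where Col5a3 was gained. With fold changes scaled by summed levels, an alternative chosen after seeing the data, 17 chains were called, 9 of them shared with the 15, and the split was 3 higher against 14 lower at p8. Over 7 alternatives, the 15 called chains gave 105 values, of which 83 kept their call, 22 lost it and 0 changed sign. The regional and mutant counts stayed at 0 under each alternative run. The collagen share of the summed level, 0.0946% at p8 and 0.0815% at e12.5, was 0.0992% and 0.0715% with weights of 3 and 3 samples, and 0.0892% and 0.0879% with weights of 6 and 2. The median log2 fold changes of the fibrillar, basement membrane and other chains, 0.81, 0.62 and 0.43, are each smaller than the shift of 1.23 between the scales, so all turn negative when scaled by summed levels. No paired analysis was possible because the tables hold no value per sample, and leaving out each replicate was not run for the same reason. Depth per sample is unknown, and the regional tables could detect only large differences in collagen chains.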

Other observations

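Other matrix genes were read from the same tables. Of 10 genes of fibril-associated matrix, Postn, a matricellular protein, and Fbln2, a fibulin of basement membranes and elastic fibres, were called higher at p8, with levels of 487 and 432 at p8 and 167 and 92.5 at e12.5 (adjusted p = 0.0215 and 0.00832). Fmod, a small proteoglycan that binds fibrils, was called lower, with 0.816 at p8 and 10.7 at e12.5 (adjusted p = 0.00262).

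Of 9 collagenases, matrix proteases and inhibitors, Ctsk, a lysosomal protease that cleaves collagen, and Timp2, an inhibitor of matrix metalloproteinases, were called higher at p8, with log2 fold changes of 5.47 and 1.56 (adjusted p = 1.33e-22 and 1.56e-08). Mmp8 and Mmp9, the neutrophil collagenase and a gelatinase, are named here after their values were seen. They had levels of 16466 and 18132 at p8, against 5.74 and 93.6 at e12.5, and brachial log2 fold changes of 5.88 and 6.03 over the other regions at p8. Neither had a p in the stage table or in any regional table, and none of these values was tested.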
